A study of Homo sapiens with 22 samples.

Results

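The genes described here are 8 keratins that mark the main kinds of epithelium: KRT7, KRT8, KRT18 and KRT19 of simple, single-layered epithelia, KRT5 and KRT14 of the basal layer of stratified epithelia, and KRT1 and KRT10 of the layers above it. For each gene, every region of 4 deposited peak lists that touched the RefSeq gene body or the 25 kb on either side was taken, and these stretches are called windows. The windows of these 8 genes, among 19974 protein-coding genes, covered 454 kb and held 170 of the 532810 regions in the lists. They held 40 of 155746 open chromatin (ATAC) regions of HFFc6 and 44 of 189982 ATAC regions of H1. For CTCF, a zinc-finger protein that binds insulators and the anchors of chromatin loops, they held 37 of 82297 regions of HFFc6 and 49 of 104785 regions of a list whose name gives CTCF and hESC (human embryonic stem cells). A region was called shared when at least 1 bp of it overlapped the other cell type's list of the same kind, ATAC or CTCF. Otherwise it was called list-only.

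HFFc6 is subclone c6 of HFF-hTERT, a human foreskin fibroblast line immortalised with the telomerase gene hTERT, so it stands for 1 clone. H1 is an embryonic stem cell line, also human. No treatment is named for either. The HFFc6 ATAC list came from 8 libraries, the H1 ATAC list from 2 and the HFFc6 CTCF list from 2 Cut&Tag libraries, in which an antibody brings the Tn5 transposase to CTCF. The assay and libraries behind the hESC-named CTCF list were not given in the sources used here. Every list was a single call over its group with no values per library. The counts and shares below therefore compare lists, with no replicate check and no test between cell types, and the 95% Wilson intervals cover counting error only. A region open in a few cells and a region weakly open in all of them cannot be told apart in such bulk data. Expression was not measured in the lists used.

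Keratins are the intermediate filament proteins of epithelial cells. Each filament is built from obligate pairs of an acidic type I and a basic type II chain, so KRT8 pairs with KRT18, KRT5 with KRT14, and KRT1 with KRT10. Type II genes lie in a cluster on chromosome 12 and type I genes in a cluster on chromosome 17, with the exception of the type I gene KRT18, which sits beside KRT8. KRT8 and KRT18 are the first keratins of the embryo and are made by pluripotent cells, whereas fibroblasts rest mainly on the intermediate filament vimentin. As basal keratinocytes leave the basal layer they stop making KRT5 and KRT14 and switch to KRT1 and KRT10.

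The markers of the labelled cell types were open as follows within 1 kb of a gene's start, or of either end where no start was listed. Of 10 embryonic stem cell markers, 6 had a region in H1 alone, 2 in both lists, 0 in HFFc6 alone and 2 (POU5F1 and NANOG) in neither. Of 10 fibroblast markers, 2 had a region in HFFc6 alone, 7 in both, 0 in H1 alone and 1 (THY1) in neither. Of 10 keratinocyte markers, 1 had a region in HFFc6 alone, 4 in H1 alone, 2 in both and 3 in neither. Of 6 melanocyte markers, 0 had a region in HFFc6 alone, 1 in H1 alone, 3 in both and 2 in neither. In the keratin windows, a −log10 q of at least 10 was held by 90.0% of HFFc6 ATAC regions, against 63.6% of the H1 ATAC regions, 62.2% of HFFc6 CTCF regions and 51.0% of hESC-named CTCF regions. The median widths there were 697 bp, 375 bp, 798 bp and 451 bp in the same order. With every region set to 500 bp around its summit, no share given below moved beyond its interval. Fold enrichment, the peak caller's signal over its background, is the authors' value for each peak, and it is set against other peaks only within its own list, as a percentile.

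The first comparison asked at which keratin starts the chromatin was open in each cell type. Within 1 kb of the start, KRT8 and KRT18 had an ATAC region in both lists, KRT5, KRT7 and KRT19 in H1 alone, and KRT1, KRT10 and KRT14 in neither. Over all protein-coding genes, 70.1% had a region in both lists, 8.39% in H1 alone, 4.59% in HFFc6 alone and 17.0% in neither. No keratin of the 8 had a region at its start in HFFc6 alone. Within 2 kb, KRT5, KRT7, KRT14 and KRT19 also had a region in both lists and 0 keratins had one in H1 alone, so these states depend on distance. CTCF regions at the starts were in both lists for KRT7, KRT8 and KRT18, in the hESC-named list alone for KRT5 and KRT19, and in neither for KRT1, KRT10 and KRT14. Over all genes these states held for 60.6%, 8.28% and 23.8%, and 7.41% had a CTCF region in HFFc6 alone, a state found at 0 of the 8 keratins. The 3 genes with no ATAC region at the start were thus also those with no CTCF region there, and all of them belong to stratified epithelium. This group depends on the limits used. With 500 bp around summits KRT14 had an ATAC region in H1 alone. With a −log10 q of at least 10, KRT5, also of stratified epithelium, had an ATAC region in neither list. Starts were those listed by RefSeq for KRT5, KRT8 and KRT10. The listed start of KRT8 belongs to a longer transcript, and that of a known shorter transcript is not listed. The states of KRT8 given here therefore hold for the listed start only. With either end of the gene accepted for all genes, KRT10 joined the keratins with a region in both lists, through regions at its 3′ end. Over all genes the states then held for 70.5% (both), 8.29% (H1 alone), 5.55% (HFFc6 alone) and 15.7% (neither). For the members without a listed start either end of the gene was accepted throughout, and as background KRT7 and KRT18 are transcribed towards higher coordinates and KRT1, KRT14 and KRT19 towards lower ones.

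The RefSeq promoter table of GRCh38 held KRT5, KRT8 and KRT10, which had different ATAC states at the start (H1 alone, both and neither). For KRT8 it lists the start of a longer transcript only. The KRT8 stretch, its motifs and its state therefore do not describe the promoter of the shorter transcript. The 250 bases before each start are printed 5′ to 3′ on the minus strand, from which all these genes are transcribed, with capitals at the motifs found. The stretches are chr12:52926470-52926719 for KRT8, chr12:52520395-52520644 for KRT5 and chr17:40822615-40822864 for KRT10.
KRT8: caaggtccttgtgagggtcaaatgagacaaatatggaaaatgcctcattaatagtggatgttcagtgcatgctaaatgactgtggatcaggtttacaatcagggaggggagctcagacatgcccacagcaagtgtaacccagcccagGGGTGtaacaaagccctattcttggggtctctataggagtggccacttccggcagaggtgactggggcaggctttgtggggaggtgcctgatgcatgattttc
KRT5: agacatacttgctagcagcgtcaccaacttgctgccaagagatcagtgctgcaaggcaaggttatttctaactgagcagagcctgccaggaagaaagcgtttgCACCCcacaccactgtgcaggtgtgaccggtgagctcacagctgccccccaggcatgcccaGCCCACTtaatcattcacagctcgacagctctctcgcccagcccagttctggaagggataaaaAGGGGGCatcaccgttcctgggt
KRT10: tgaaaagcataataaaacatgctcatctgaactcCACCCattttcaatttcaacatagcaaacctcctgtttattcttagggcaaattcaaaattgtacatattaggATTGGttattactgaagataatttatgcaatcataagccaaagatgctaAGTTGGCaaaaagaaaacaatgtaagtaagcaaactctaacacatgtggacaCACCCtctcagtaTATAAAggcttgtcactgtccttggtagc

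Motifs were searched on both strands. KRT10 held a TATA box (TATAAA) 29 bp before its start, while the KRT5 and KRT8 stretches held none. The TATA box was found in 9.0% of 22132 promoters of protein-coding genes and in 20 of 35 promoters (57.1%) of other keratins. KRT10 also held the CCAAT box, 143 bp before the start, which 32.7% of all promoters and 45.7% of those of other keratins held. The KLF motif (CACCC) stood in all 3 keratin stretches, once in KRT5 and in KRT8 and at 2 places in KRT10, and in 58.4% of all promoters. A part of the CTCF core (AGNNGGC) stood in KRT10 at 1 place and in KRT5 at 2, and was held by 62.6% of all promoters. The GC box (GGGCGG), in 53.7% of all promoters, was in none of the 3, nor in more than 4 of the 35 promoters of other keratins (11.4%). The AP-1 motif (TGANTCA) was in 5.35% of all promoters and 0 of 35 of other keratins, and the grainyhead-like motif (AACNGGTT) in 1.42% and 2.86%. Neither was in the 3 stretches. The stretches were poor in CpG: KRT10 had 0 CpG and a GC content of 34.8%, KRT8 1 CpG and 50.4%, and KRT5 6 CpG and 56.0%. The median over all promoters was 16 CpG and 62.0% GC, and over those of other keratins 2 CpG and 44.8%. These matches describe letters in the window and not binding.

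**Figure D1:**
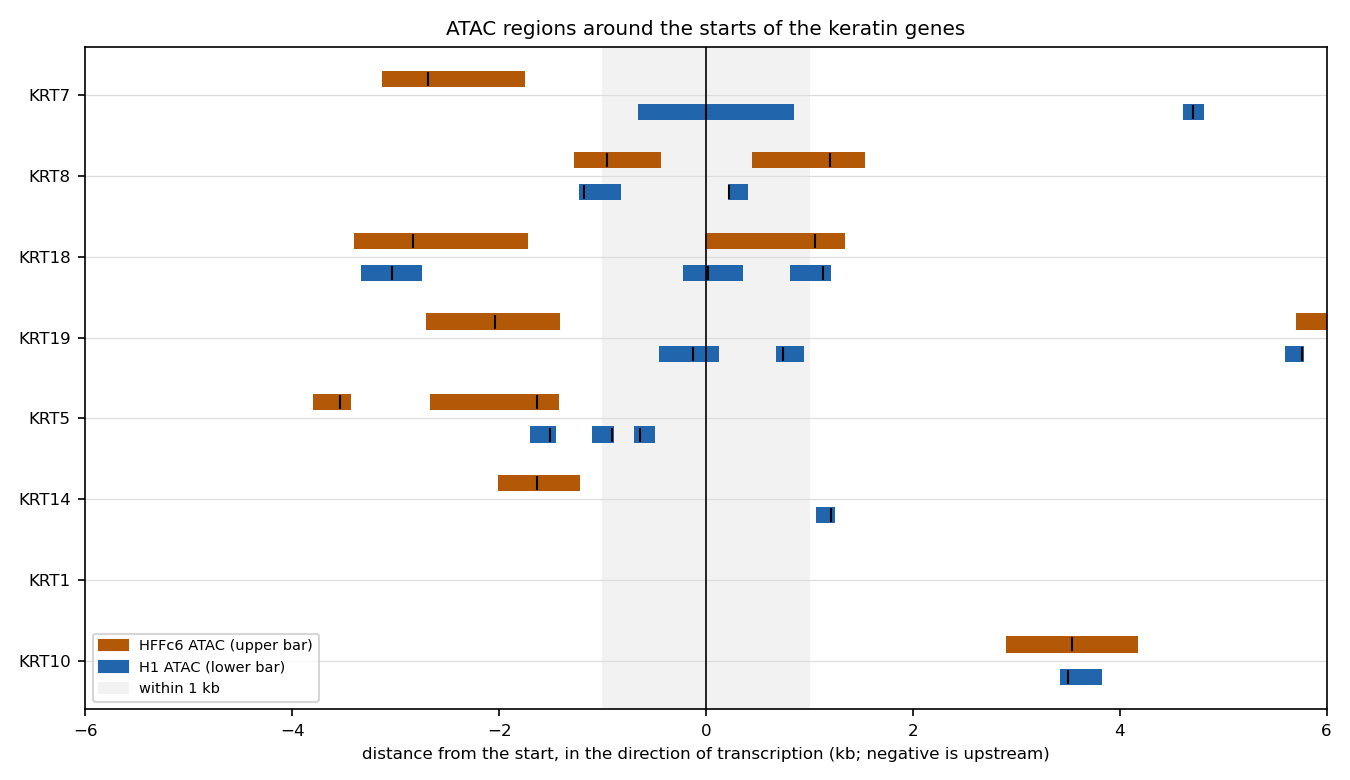
ATAC regions of HFFc6 (upper bars) and H1 (lower bars) within 6 kb of the starts of the 8 keratin genes, with distance in kb along the direction of transcription on the horizontal axis, a black tick at each summit and grey shading within 1 kb of the start. H1 regions lie over the starts of KRT7, KRT18 and KRT19, HFFc6 regions lie upstream of KRT7, KRT19, KRT5 and KRT14, and KRT1 has none in view. For KRT8 the listed start, that of a longer transcript, is used.

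Among the simple keratins, KRT7 is the type II keratin of glandular and ductal epithelia. Its 22611 bp body lies at chr12:52233243-52255853. The H1 ATAC region chr12:52232587-52234090 spanned its 5′ end with a summit 1 bp away, at a fold enrichment of 4.32 (percentile 28.5 of its list). No HFFc6 ATAC region reached that end, and the nearest, chr12:52230108-52231496, ended 1747 bp upstream at a fold enrichment of 9.97 (percentile 72.8). CTCF regions of both lists spanned the 5′ end, the HFFc6 region at a fold enrichment of 2.57 (percentile 3.58) and the hESC-named region at 4.61 (percentile 30.1). The start of KRT7 was therefore in the HFFc6 CTCF list, near its lower limit, and not in the HFFc6 ATAC list. The strongest HFFc6 ATAC region of KRT7 was chr12:52243559-52244797 inside the gene body, at 15.8 (percentile 93.5). It was absent from H1 and coincided with an HFFc6-only CTCF region of fold enrichment 7.34. H1 in turn had a further 2 regions in the body that HFFc6 lacked, chr12:52237853-52238056 at 5.10 and chr12:52250040-52250792 at 6.92. The KRT7 window thus held 9 HFFc6 ATAC regions, of which 2 were shared, and 7 H1 regions, of which 2 were shared. Both shared places lay upstream of the gene, over the non-coding genes LINC02874 and LINC00592, and each carried CTCF in both lists. At the nearer place the H1 ATAC region, chr12:52221953-52222470, had a fold enrichment of 16.2 (percentile 94). Of its CTCF regions, 7 of 9 in HFFc6 and 7 of 11 in the hESC-named list were shared.

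KRT19, the smallest keratin, is a type I chain of ducts and simple epithelia, here at chr17:41523617-41528308. The H1 ATAC region chr17:41528183-41528761 spanned its 5′ end with the summit 129 bp upstream, at a fold enrichment of 12.0 (percentile 84.8). The hESC-named CTCF region chr17:41528248-41529035 lay over the same end at 8.49 (percentile 58.4). In HFFc6 the nearest ATAC region began 1409 bp upstream, at chr17:41529717-41531019. With a fold enrichment of 17.0 (percentile 96.1) and a −log10 q of 399, it had the highest fold enrichment of all HFFc6 ATAC regions in the keratin windows. It was absent from H1, and the HFFc6-only CTCF region chr17:41529681-41530970 lay at the same place with a fold enrichment of 8.11 (percentile 65.9). At KRT19, as at KRT7, the ATAC region nearest the start thus lay over the 5′ end in H1 and more than 1 kb upstream in HFFc6, each with a CTCF region of the matching list. KRT7 differed in its weak HFFc6 CTCF region over the 5′ end. KRT19 had 5 HFFc6 ATAC regions, of which 3 were shared, and 9 H1 regions, of which 4 were shared. Its 3 shared HFFc6 regions also lay in both CTCF lists. The farthest of them met the hESC-named CTCF region chr17:41548747-41549725, which touched LINC00974 with its end while its summit lay outside that gene, and whose fold enrichment of 32.7 (percentile 99.8) was the highest of that list in any keratin window. The HFFc6 CTCF region at this place, chr17:41547818-41549848, had 12.5 (percentile 91.3).

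KRT8 and KRT18 are neighbours, and 51006 bp of their windows are the same stretch, so 31 of the 170 regions were counted for both genes. KRT18, at chr12:52948855-52952906, had open chromatin over its 5′ end in both cell types. The H1 region chr12:52948629-52949209 had its summit 21 bp past the 5′ end at a fold enrichment of 5.49 (percentile 46.1). The HFFc6 region chr12:52948845-52950196 covered the 5′ end with its first bases only, and its summit stood 1051 bp inside KRT18, at 7.53 (percentile 59.8) and a −log10 q of 233. H1 also had a region there, chr12:52949667-52950062, at 3.28 (percentile 5.77), as did both CTCF lists. The hESC-named CTCF list alone had a region at the 5′ end itself, chr12:52948701-52949085, with a summit 35 bp upstream. The open region of KRT18 was thus shared by the lists, while its nearest summit lay at the 5′ end in H1 and within the gene in HFFc6. The KRT18 window held 7 HFFc6 ATAC regions, of which 5 were shared, and 8 H1 regions, of which 6 were shared.

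KRT8 has a listed body of 52670 bp, chr12:52897191-52949860, which overlaps the 5′ end of KRT18, and a listed start at position 52926469. The nearest HFFc6 ATAC region to that start, chr12:52926902-52927742, began 433 bp upstream at a fold enrichment of 7.94 (percentile 62.3). The nearest in H1, chr12:52926060-52926254, lay 215 bp downstream at 2.97 (percentile 2.10), a weak call for its list. A stronger H1 region, chr12:52927289-52927694, lay 820 bp upstream at 7.57 (percentile 65.2) and overlapped the HFFc6 region just named. HFFc6 also had chr12:52924929-52926025, absent from H1, 444 bp downstream at 9.97 (percentile 72.7). The hESC-named CTCF region chr12:52925818-52926574 spanned the start and reached into the promoter printed above, at 5.18 (percentile 36.5). That list had another region 977 bp upstream at 6.09 (percentile 44.4). HFFc6 had CTCF regions 560 bp downstream at 7.48 (percentile 61.2) and 762 bp upstream at 6.64 (percentile 53.9). As background, a shorter KRT8 transcript is known to start nearer the low end of this body, and the tables used here do not list that start. In that part of the body H1 had 2 ATAC regions, chr12:52903430-52903723 at 6.88 and chr12:52905015-52905282 at 6.78. HFFc6 had chr12:52903454-52904018 at 3.93 (percentile 29.6), which shared the first place, and no ATAC region at the second. Both CTCF lists had a region at the second place, at 2.71 (percentile 4.88) in HFFc6 and 7.48 (percentile 53.5) in the hESC-named list. The KRT8 window held 12 ATAC regions in each cell type, 8 of them shared in HFFc6 and 9 in H1. The strongest HFFc6 CTCF region of any keratin window stood 16798 bp beyond the 3′ end of KRT8, at chr12:52879158-52880393, with a fold enrichment of 14.1 (percentile 95.9). It was in all 4 lists.

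**Figure D2:**
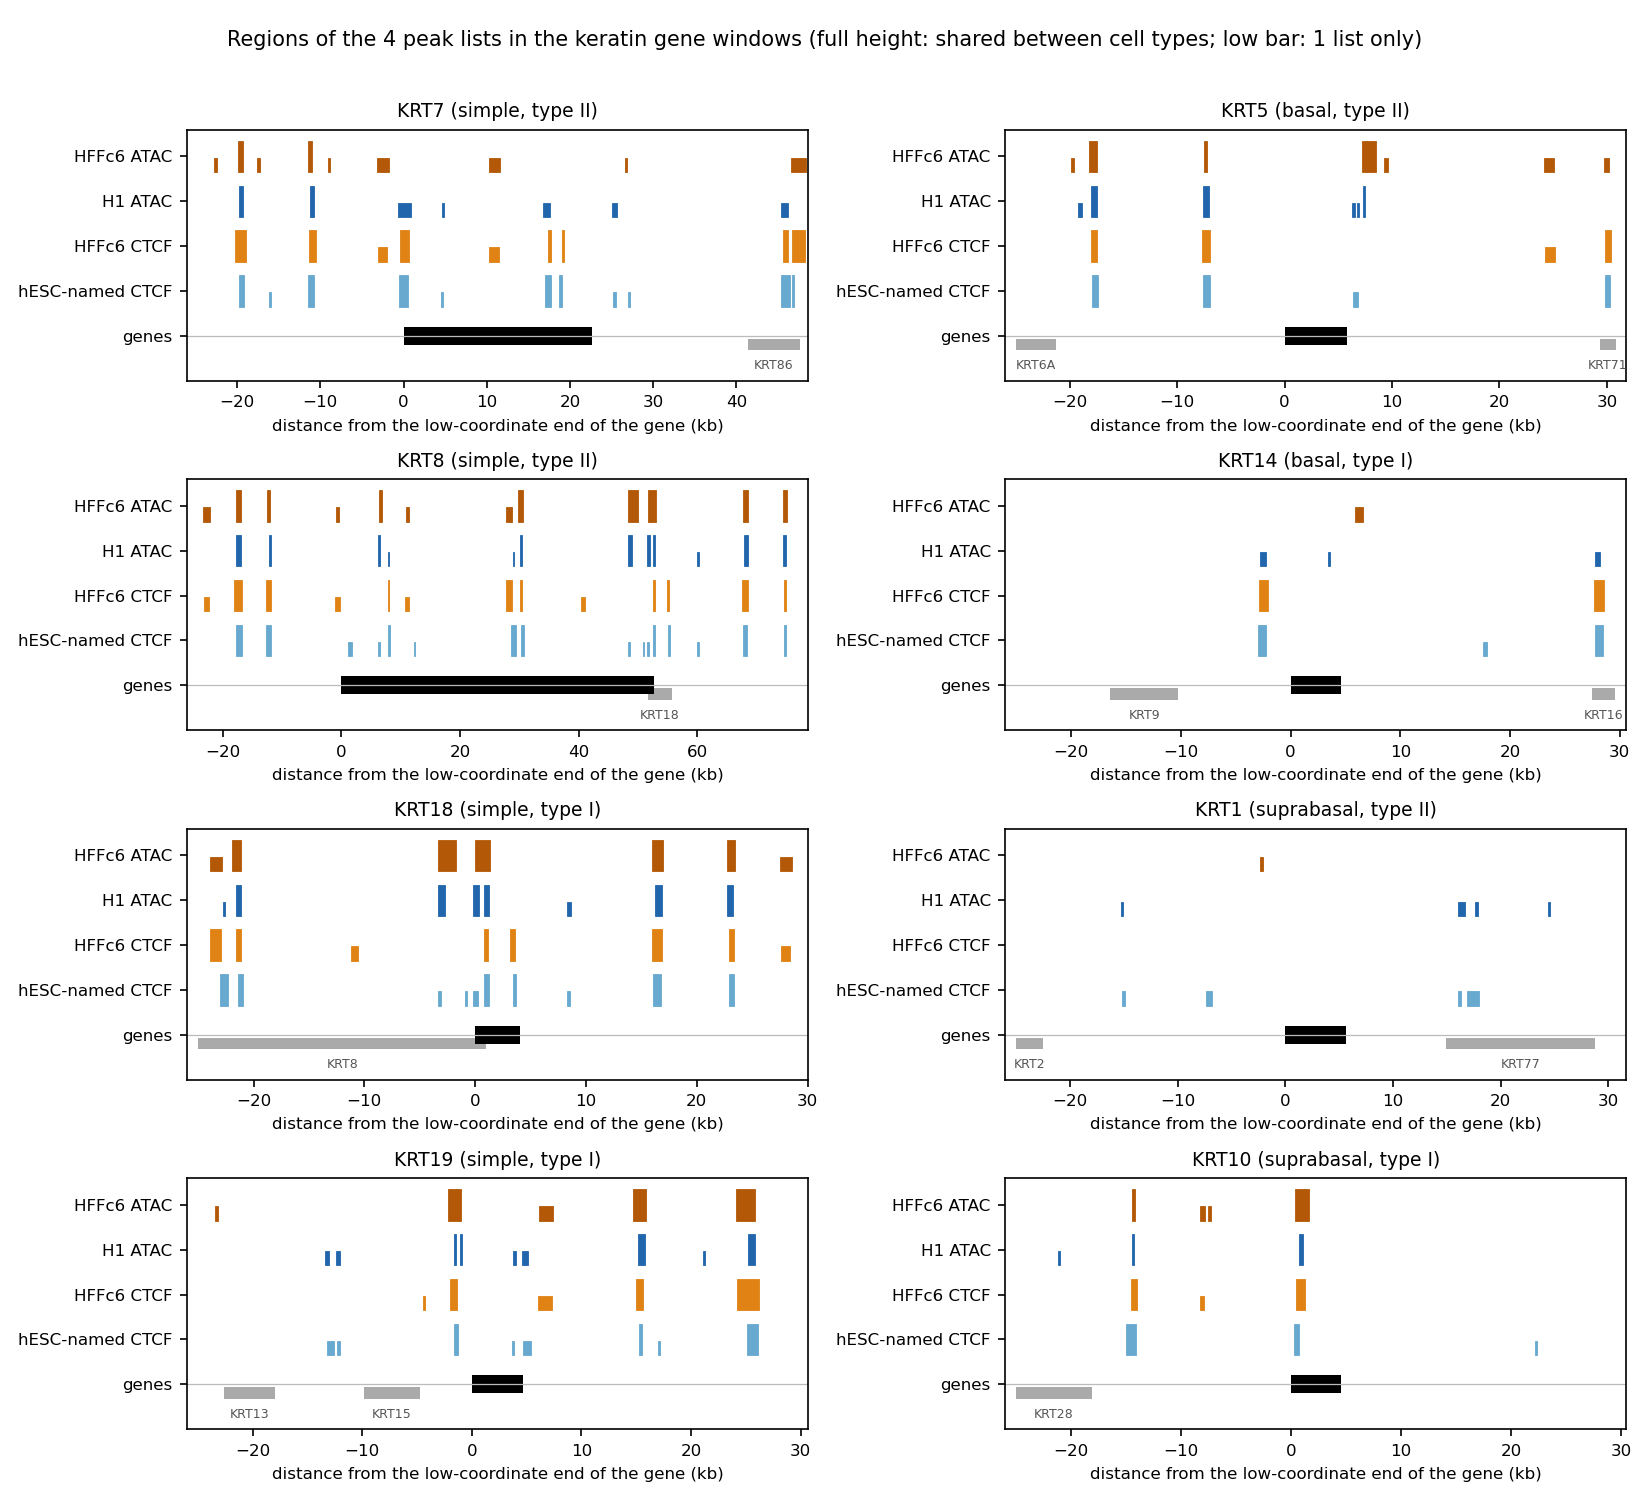
Positions of the regions of the 4 lists (rows) in the windows of the 8 keratin genes (panels), in kb from the low-coordinate end of each gene, with the keratin body in black and other protein-coding genes in grey. Full-height bars are regions shared between the cell types and low bars are list-only regions: KRT8 and KRT18 hold mostly full-height bars, and the ATAC rows of KRT1 and KRT14 hold low bars only.

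Among the stratified keratins, KRT5 is the type II chain of basal cells, at chr12:52514575-52520394. It had an H1 ATAC region 494 bp upstream of its start, chr12:52520888-52521092, at a fold enrichment of 3.81 (percentile 19.7) and a −log10 q of 3.85. A further H1 region followed 888 bp upstream at 3.48 (percentile 11.6). The hESC-named CTCF region chr12:52520979-52521399 overlapped both, at 7.37 (percentile 52.8). The call of open chromatin at KRT5 in H1 therefore rested on weak regions, and with a −log10 q of at least 10 in every list KRT5 had none at its start. In HFFc6 the nearest region, chr12:52521813-52523059, began 1419 bp upstream at 3.62 (percentile 25.9), and another H1 region overlapped it. A place 6981 to 7184 bp beyond the 3′ end of KRT5 was in all 4 lists and had the highest fold enrichment of the KRT5 window in each of them except HFFc6 ATAC, where chr12:52538762-52539658 had 9.63 (percentile 71.1). At the place held by all 4 lists, the hESC-named CTCF region chr12:52506991-52507594 had a fold enrichment of 24.1 (percentile 97.6), the HFFc6 CTCF region 12.9 (percentile 92.9), the H1 ATAC region 15.3 (percentile 92.4) and the HFFc6 ATAC region 6.08 (percentile 50.1). Of the 7 HFFc6 and 6 H1 ATAC regions in the KRT5 window, 3 in each list were shared. The window reached the keratin genes KRT6A and KRT71.

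KRT14, the type I partner of KRT5, lies at chr17:41582279-41586895. It had 1 ATAC region in HFFc6 and 3 in H1, and 0 were shared. The HFFc6 region chr17:41588117-41588902 stood 1222 bp upstream at a fold enrichment of 5.64 (percentile 46.6). The H1 region nearest the start lay 1060 bp inside the gene at 2.77 (percentile 1.04), just past the 1 kb limit. The strongest H1 ATAC region in the keratin windows was chr17:41579454-41580049, 2230 bp beyond the 3′ end of KRT14, at 21.0 (percentile 98.5). CTCF was called there in both lists, at 27.6 (percentile 99.2) in the hESC-named list and 9.10 (percentile 73.3) in HFFc6, while no HFFc6 ATAC region overlapped it. The same held at the other shared CTCF place of the window, in KRT16, where H1 had an ATAC region at 11.5 (percentile 83.1) and HFFc6 had none. Both HFFc6 CTCF regions of the KRT14 window thus lay at places called open in H1 and not in HFFc6.

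KRT1, the type II chain of the suprabasal layers, at chr12:52674736-52680407, had the fewest regions of the fibroblast lists. Its window held 1 HFFc6 ATAC region, chr12:52672380-52672655, 2081 bp beyond the 3′ end at a fold enrichment of 3.29 (percentile 21.2). It held 0 HFFc6 CTCF regions, and the nearest lay 91290 bp from the gene. H1 had 4 ATAC regions, none nearer than 10384 bp to KRT1, and 3 of these lay over KRT77. The hESC-named CTCF list had 4 regions, the nearest 6823 bp away at 9.10 (percentile 61.1). None of the 9 regions of KRT1 was shared, and 3 of the 4 H1 ATAC regions overlapped a hESC-named CTCF region.

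KRT10, the partner of KRT1, at chr17:40818117-40822614, differed from it in holding shared regions. At its 3′ end all 4 lists had a region over the gene. All but the hESC-named CTCF region also covered the low-coordinate end of the antisense gene KRT10-AS1, at chr17:40819145-40836274. The HFFc6 ATAC region at the 3′ end of KRT10, chr17:40818442-40819711, had a fold enrichment of 13.2 (percentile 85.7), and the H1 region chr17:40818790-40819188 had 5.59 (percentile 47.8). The CTCF regions at this end were lower in their lists, at 4.63 (percentile 32.3) in HFFc6 and 3.83 (percentile 19.3) in the hESC-named list. These regions ended 2903 bp or more from the start of KRT10, whose TATA-box promoter is printed above and carried no region of any list. The H1 ATAC region chr17:40803654-40803861, 14256 bp past the 3′ end, had 19.7 (percentile 97.8) and was also in all 4 lists. KRT10 had 4 HFFc6 and 3 H1 ATAC regions in its window, 2 shared in each list.

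**Figure D3:**
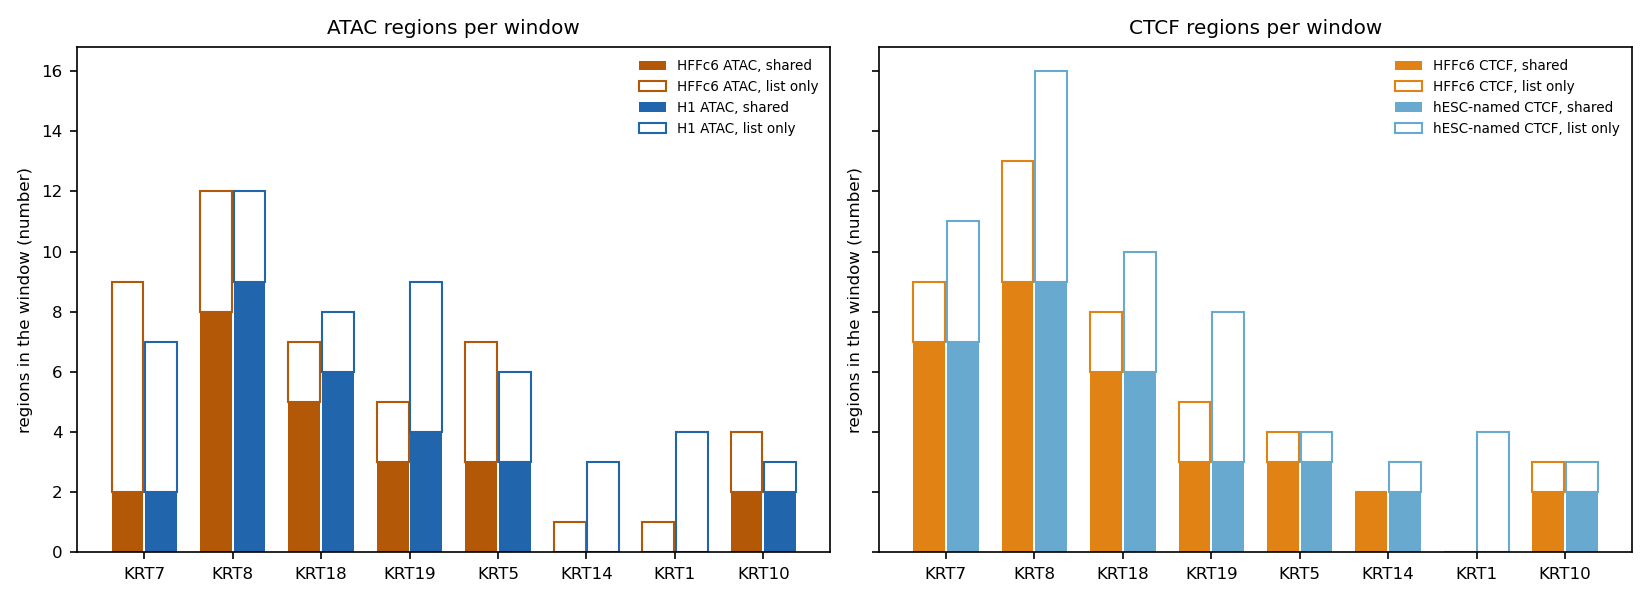
Number of ATAC regions (left) and CTCF regions (right) in the window of each keratin gene, with shared regions as filled parts and list-only regions as open parts of each bar. KRT8 holds the most regions in each list, KRT1 and KRT14 hold 1 HFFc6 ATAC region each, and KRT1 holds 0 HFFc6 CTCF regions.

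The second comparison set the number of list-only regions side by side for each keratin. In ATAC, KRT5, KRT7, KRT8 and KRT10 had more HFFc6-only than H1-only regions, KRT1, KRT14 and KRT19 had more H1-only regions, and KRT18 had equal numbers. That is 4 of 8 keratins with more HFFc6-only regions, where 45.5% of all protein-coding genes had more, and 3 of 8 with more H1-only regions, where 39.3% had. The differences were small, from 3 more H1-only regions at KRT1 and KRT19 to 2 more HFFc6-only regions at KRT7 (7 against 5). The quartiles over all genes were 2 more H1-only and 2 more HFFc6-only regions, so the ATAC balance of the keratins was near that of genes in general. In CTCF, 6 of 8 keratins had more hESC-only regions (44.4% of all genes), 2 had equal numbers (KRT5 and KRT10), and 0 had more HFFc6-only regions (34.2% of all genes). With a −log10 q of at least 10 in every list, 3 keratins had more hESC-only and 2 more HFFc6-only CTCF regions, and the counts were the same with equal numbers of peaks in the lists. The cause of this shift was not tested. With 10 kb windows the ATAC counts turned, to 2 keratins with more HFFc6-only and 4 with more H1-only regions.

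Per 100 kb of window, a median of 10.4 HFFc6 ATAC regions fell on the 8 keratins and 7.68 on all genes. The values were 10.2 and 7.76 for H1 ATAC, 8.15 and 5.25 for HFFc6 CTCF, and 10.9 and 5.59 for the hESC-named CTCF list. Counted per window, without regard to its length, the keratins were near all genes. The medians were 6 and 6 for HFFc6 ATAC and 6.5 and 7 for H1 ATAC. For CTCF they were 4.5 and 5 in HFFc6 and 6 and 5 in the hESC-named list. The order of the keratins differed between the lists. KRT18 was highest in HFFc6 ATAC (13.0 per 100 kb), HFFc6 CTCF (14.8) and hESC-named CTCF (18.5), and KRT19 in H1 ATAC (16.5). KRT1 and KRT14 were lowest in HFFc6 ATAC, at 1.80 and 1.83, which is 1 region each. In H1 ATAC, KRT14 and KRT10 were lowest, at 5.49 and 5.50, or 3 regions each. KRT1 held 7.18 per 100 kb in H1 ATAC and in the hESC-named CTCF list, against 0 in HFFc6 CTCF.

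The third comparison asked how much of the keratin windows the cell types shared. Of the HFFc6 ATAC regions, 18 of 40, or 45.0% (95% Wilson interval 30.7 to 60.2), overlapped an H1 region, against 34.7% of the whole list. Of the H1 regions, 20 of 44, or 45.5% (31.7 to 59.9), overlapped an HFFc6 region, against 31.8%. Both intervals held the value of the whole list. Without the windows of KRT8 and KRT18, the shares were 37.0% (10 of 27) and 34.4% (11 of 32), close to the whole lists. The simple keratins shared 48.1% of HFFc6 and 53.6% of H1 regions, and the stratified ones 38.5% (5 of 13) and 31.2% (5 of 16). The simple keratins were uneven. In HFFc6, KRT8 shared 8 of 12 regions and KRT18 5 of 7, against 2 of 9 at KRT7 and 3 of 5 at KRT19. In H1 these were 9 of 12 and 6 of 8, against 2 of 7 and 4 of 9. The difference between simple and stratified keratins was not tested.

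For CTCF, the shares in the keratin windows were above those of the whole lists with all deposited regions and below them at a −log10 q of at least 10. Of HFFc6 CTCF regions, 26 of 37, or 70.3% (54.2 to 82.5), were in the hESC-named list, against 50.9% of the whole list. Of hESC-named regions, 26 of 49, or 53.1% (39.4 to 66.3), were in HFFc6, against 41.3%, a value its interval held. Without the KRT8 and KRT18 windows these were 73.9% (17 of 23) and 51.5% (17 of 33). Among HFFc6 CTCF regions with a −log10 q of at least 10, the share found in the hESC-named list at the same limit was 47.8%, 11 of 23, against 55.1% of the whole list. In the other direction it was 44.0%, 11 of 25, against 50.4%.

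Among the shares compared, the overlap of ATAC regions with CTCF stood farthest from the whole lists, and it was added after the data were seen. In H1, 37 of 44 ATAC regions, or 84.1% (70.6 to 92.1), overlapped a hESC-named CTCF region, against 41.3% of the whole list. In HFFc6, 27 of 40 ATAC regions, or 67.5% (52.0 to 79.9), overlapped an HFFc6 CTCF region, against 43.9%. With a −log10 q of at least 10 in both lists, the H1 share was 67.9% (19 of 28), below the interval of 70.6 to 92.1. The whole-list share was then 51.6%, so the gap was smaller. The HFFc6 share at this limit was 55.6% (20 of 36), against 38.5%. No interval is given at this limit. With all deposited regions, the high share in H1 held for list-only regions too. There 19 of 24 H1-only ATAC regions (79.2%) overlapped a hESC-named CTCF region, against 30.1% of H1-only regions in the whole list. Of H1 regions shared with HFFc6, 18 of 20 (90.0%) did, against 65.2%. In HFFc6 the shares were 12 of 22 (54.5%) for HFFc6-only regions, against 30.1%, and 15 of 18 (83.3%) for shared ones, against 69.8%. Examples of list-only places held by both assays are the 5′ end of KRT19 and 2 of the 3 H1 regions over KRT77 in the KRT1 window in the stem cell lists, and the body of KRT7 and the upstream region of KRT19 in HFFc6.

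Seen from CTCF, the keratin windows lay nearer the whole lists or below them. Of HFFc6 CTCF regions, 27 of 37, or 73.0% (57.0 to 84.6), overlapped HFFc6 ATAC, below the 85.0% of the whole list. Of the hESC-named CTCF regions, 36 of 49, or 73.5% (59.7 to 83.8), overlapped H1 ATAC, against 72.6%. Across cell types, 21 of 37 HFFc6 CTCF regions (56.8%, 40.9 to 71.3) overlapped H1 ATAC, against 51.9%, and 21 of 49 hESC-named regions (42.9%, 30.0 to 56.7) overlapped HFFc6 ATAC, against 42.7%. Per 100 kb of window, the median number of CTCF regions was higher at the keratins than at all genes. Counted per window it was 4.5 against 5 in HFFc6 and 6 against 5 in the hESC-named list. The part of density in the ATAC overlap was not tested. Cut&Tag and ATAC-seq also use the same transposase, and its part in their overlap was not tested.

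**Figure D4:**
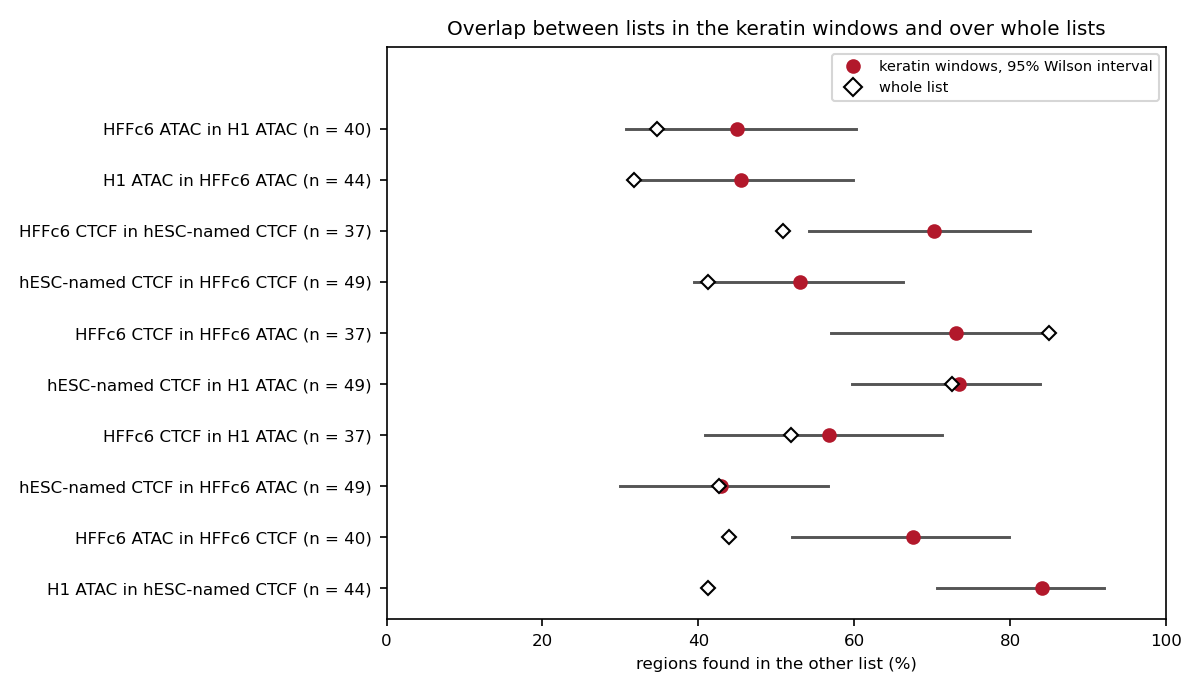
Share of the regions of a list that overlap another list (horizontal axis, percent), in the keratin windows (red points with 95% Wilson intervals, number of regions in brackets) and over the whole list (open diamonds). The 84.1% of H1 ATAC regions in the hESC-named CTCF list and the 67.5% of HFFc6 ATAC regions in HFFc6 CTCF lie farthest above their whole-list values of 41.3% and 43.9%.

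Other keratins were mostly without a region at the start, or at either gene end where no start was listed. Of 22 other type II keratins, 18 had no ATAC region within 1 kb of the start in either list, KRT86 had one in both, and KRT4, KRT78 and KRT80 had one in HFFc6 alone. Of 25 other type I keratins, 19 had none, KRT16, KRT17 and KRT23 had one in both lists, KRT222 in H1 alone, and KRT13 and KRT34 in HFFc6 alone. Among these named keratins only KRT4 and KRT34 had a listed start. The others were called by either gene end, so their regions need not lie at the start. CTCF was absent from the start in both lists for 18 of the type II and 20 of the type I genes. Open chromatin at the start in H1 alone, the state of KRT5, KRT7 and KRT19, was thus found at 1 gene of these lists, KRT222, by either gene end. Of 15 other intermediate filament genes, 9 had a region in both lists, among them VIM, which encodes vimentin, and LMNA, which encodes lamins of the nuclear envelope. DES, NEFH and INA, which encode filaments of muscle and nerve cells, had a region in H1 alone, DES and NEFH by either gene end. Of 22 genes for desmosomal and other partners of keratins and for epithelial regulators, 13 had a region in both lists and 3 in neither. PKP2, a desmosomal plaque protein, and the epithelial transcription factors GRHL2 and OVOL1 had one in H1 alone. PKP3, another plaque protein, LORICRIN, a protein of the cornified envelope, and TP63, the regulator of basal keratinocytes, had one in HFFc6 alone. PKP2, GRHL2, OVOL1 and PKP3 were called by either gene end.

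By the sum of absolute differences over 6 window counts (shared, HFFc6-only and H1-only ATAC, and shared, HFFc6-only and hESC-only CTCF), the protein-coding genes most like KRT7 were FBXL20, at a distance of 2, and PDE6A and PHC3, at 4. Those most like KRT8 were SEMA3F, at 5, and DAGLA and NACC1, at 6. Those most like KRT14 were CCDC138, LALBA and MAOB, at 1. For the other 5 keratins more than 5 genes were tied, and none is named.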

How the data were processed

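The 22 libraries fall into 6 groups, and 10 of them (SMC1, H3K4me3 and H3K27ac) were not used here. The CTCF libraries have HFF1 in their titles and HFFc6 as the cell line label, which was followed. The meaning of the R and T labels of the HFFc6 ATAC libraries is not stated, nor whether libraries came from separate cultures. BWA, MACS2 and bedtools were used with hg38, per the submitters' processing notes. Versions, filters, handling of replicates, background control and any Tn5 offset were not given in the sources used here. The deposited lists give each peak a score (not used), a fold enrichment (a ratio over the caller's background) and a −log10 q-value, and the authors' lists stop at a q of 0.05. Other deposited values used are the summit offsets. Read depth is unknown from peak lists.

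Gene bodies came from a RefSeq table of GRCh38 patch 14 without strand or exons, so exons were not told apart from introns. Starts came from a RefSeq promoter table for 15812 genes, with all listed starts used, and either end served for the other 4162. Regions on the 22 autosomes and X were joined to windows and to each other with Python 3.11.15, numpy 2.4.6, pandas 2.3.3 and scipy 1.17.1. The overlap steps were tested on simulated data, with 0 disagreements. The text names the 8 keratins, the 3 regions of highest fold enrichment in each list and part of the regions at starts. It also names neighbours, other keratins with a region at the start, and up to 3 like genes per member. The members, gene lists and rules were chosen with earlier results of these data known. Alternatives were windows of 10 and 50 kb, a −log10 q of at least 10, equal numbers of peaks, 500 bp around summits, an overlap of 50% of the shorter region, and other limits at the start. For shares of ATAC regions found in CTCF and for shares between cell types and assays, they were chosen after seeing the data. No motif search in peaks was run.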

Additional observations from a re-analysis of the deposited data

How the results depend on the processing

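No paired analysis was possible because each list is a single call over its group with no values per library, and no library could be left out for the same reason. Of the values recomputed under the alternatives for the main shares and counts, 92 moved by less than their counting interval or 1.5 times and 16 by more. These values have no sign of their own. Of the signed differences of single genes, 7 changed sign and 4 others moved. With 10 kb windows, 2 keratins had more HFFc6-only and 4 more H1-only ATAC regions, 1 had more HFFc6-only CTCF regions, and the ATAC difference was 1 at KRT1 and −1 at KRT5. With 50 kb windows, 2 keratins had more HFFc6-only CTCF regions, the CTCF difference was 1 at KRT7, and the ATAC difference was −2 at KRT5. With a −log10 q of at least 10, 47.8% of HFFc6 CTCF regions were in the hESC-named list (whole list 55.1%) and 87.0% in HFFc6 ATAC (90.0%), and 67.9% of H1 ATAC regions were in hESC-named CTCF (51.6%). At that limit 2 keratins had more HFFc6-only and 3 more hESC-only CTCF regions, with differences of 1 at KRT7 and 2 at KRT19. With equal numbers of peaks, 45.9% of HFFc6 CTCF regions were in HFFc6 ATAC (whole list 68.9%), 57.1% of hESC-named CTCF in H1 ATAC (63.5%), 94.4% of HFFc6 ATAC in HFFc6 CTCF (66.8%) and 96.6% of H1 ATAC in hESC-named CTCF (64.4%), as the longer ATAC lists then kept only their regions of highest −log10 q. There too 2 keratins had more HFFc6-only and 3 more hESC-only CTCF regions, with a difference of 2 at KRT19. Within 2 kb of the start, 6 keratins had an ATAC region in both lists and 0 in H1 alone, by the wider limit. The cause of the other changes was not tested. With either gene end in place of the start, KRT10 had a region in both lists. With 500 bp around summits, KRT14 had a region in H1 alone.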
